A study of Rattus norvegicus with 4 samples.

Results

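Mesothelial nuclei of the fat around the thoracic aorta were chosen by their own transcripts: barcodes with at least 500 detected genes, at least 2 unique molecular identifiers (UMIs, each standing for 1 captured RNA molecule) in total over Msln, Upk3b, Upk1b, Wt1 and Bnc1, at least 1 UMI of one of these other than Wt1, and 0 UMIs of Pdgfra, Cyyr1, Ptprc and Myh11, which mark fibroblasts, endothelium, leukocytes and smooth muscle. The gate held 164 of 116661 barcodes with at least 500 genes. All 164 came from perivascular adipose tissue of the thoracic aorta (taPVAT), 119 from replicate 1 and 45 from replicate 2, and none came from the subscapular brown adipose tissue (BAT) profiled beside it. Single nuclei were prepared from snap-frozen fat of male, naïve Dahl salt-sensitive rats (SS/HsdMcwiCrl) at 16 weeks of age, with 2 libraries per tissue, about 50 mg of tissue per library and a target of 10000 nuclei. All 4 libraries share this strain, sex, age and untreated state, so tissue is the only labelled difference. The labels do not say whether 1 rat gave both tissues or whether a library pooled animals, so p-values do not measure the spread between animals. They rest on how differences between classes varied over the 2 taPVAT libraries, with a variance pooled over genes and not each gene's own spread.

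Mesothelium is a simple squamous epithelium of mesodermal origin that covers the serous surfaces of the pleura, pericardium and peritoneum and faces the cavity with microvilli and a hyaluronan-rich coat. It is joined by tight junctions and desmosomes, rests on a basement membrane, and keeps the expression of Wt1, the Wilms tumour transcription factor that marks the embryonic coelomic lining. Fibroblasts, the comparison here, lie beneath it, produce the interstitial matrix, and share part of its mesodermal programme. The thoracic aorta and its fat run beside the pleura.

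The libraries held 14765 to 44637 barcodes and 63654436 to 158140959 UMIs, and the median barcode with at least 500 genes carried 2602 to 4027 UMIs. Members carried a median of 2647 UMIs in taPVAT replicate 1 and 2744 in replicate 2, against 2806 and 2508 in gated fibroblasts (at least 3 UMIs over Pdgfra, Dcn, Col1a1 and Col3a1, and outside the mesothelial gate; 1317 and 622 nuclei). Mitochondrial transcripts made up a median of 10.8% and 13.6% of UMIs in members, 9.43% and 13.6% in fibroblasts and 7.22% and 6.45% in the remaining barcodes. The remaining barcodes lay outside the mesothelial and fibroblast gates and outside an endothelial gate. That gate asked for at least 3 UMIs over Cyyr1, Ptprb, Flt1 and Cdh5 and held 3421 and 563 nuclei. Scrublet, which scores likeness to simulated pairs of nuclei, called 11 members of replicate 1 and 1 member of replicate 2 doublets. They were kept, and the calls were recomputed without doublets. Pairs of libraries shared 126 to 424 barcode sequences, 9 members had a barcode that also occurred in another library, and no barcode was a member in both.

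Members made up 0.277% of the barcodes with at least 500 genes in taPVAT replicate 1 (95% Wilson interval 0.231% to 0.331%) and 0.365% in replicate 2 (0.273% to 0.488%). The count of 0 allowed a share of up to 0.00868% in BAT replicate 1 and 0.0112% in BAT replicate 2. Intervals and these limits cover counting error only. The intervals of the 2 taPVAT shares overlapped, and both lay above the BAT limits. No test was run on this difference, because the genes of the gate chose the members. Before the exclusion genes were applied, 168 and 56 barcodes passed in the taPVAT libraries and none in BAT. The exclusion removed 49 and 11, and of these 22 and 2 held a UMI of Cyyr1, 17 and 4 of Ptprc, 9 and 1 of Myh11 and 7 and 4 of Pdgfra. With every barcode thinned to 1000 UMIs, 43 of 41528 barcodes passed in taPVAT replicate 1 (0.104%, interval 0.0769% to 0.139%) and 27 of 12234 in replicate 2 (0.221%, 0.152% to 0.321%), again with none in BAT, and these 2 intervals did not overlap.

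The gate's own genes are given as a description, since they chose the members. Msln, the mesothelin surface glycoprotein, had 415 and 131 UMIs over all kept barcodes of the 2 taPVAT libraries, and 0 and 3 in the 2 BAT libraries. Wt1 had 967 and 462 UMIs in taPVAT against 16 and 22 in BAT. Bnc1, the basonuclin zinc-finger factor, had 105 and 27 against 9 and 6. The uroplakins Upk1b (115 and 40 UMIs in taPVAT, 1 and 0 in BAT) and Upk3b (68 and 28 against 4 and 3) followed the same order. Each of the 5 genes was thus higher in both taPVAT libraries than in either BAT library, also outside the gate. Within the members, Msln stood at 271 CPM in replicate 1 and 577 in replicate 2 (CPM, the gene's UMIs per 1000000 UMIs of the summed nuclei, with no correction for gene length, is the scale of every level below). Msln was seen in 74 of 119 and 33 of 45 members. Wt1 stood at 489 and 1052 CPM in members and was the gate gene most shared with fibroblasts, which held 55.5 and 88.1.

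The threshold of 2 gate UMIs lay on a gradient of genes that the gate did not use. Gpm6a, a neuronal-type membrane glycoprotein strongly expressed by mesothelium, stood at 4367 CPM in the 39 replicate 1 members with 2 gate UMIs, 5677 in the 36 with 3 and 7620 in the 44 with 4 or more. Barcodes just outside, with 1 gate UMI, held 738 CPM (249 barcodes), against 448 in fibroblasts and 229 in the remaining barcodes. Their gate UMI was not of Wt1, they held no exclusion gene, and they lay outside the fibroblast gate. The bins of members, in contrast, kept nuclei that also passed the fibroblast gate. In replicate 2 the values were 1278 (9 members), 7259 (9) and 15340 (27), with 384 just outside, 274 in fibroblasts and 179 in the remaining barcodes. Members at the threshold therefore carried less Gpm6a than members well inside it, in both libraries. Members outside the fibroblast gate, over all numbers of gate UMIs, held 5642 CPM of Gpm6a in replicate 1 and 9447 in replicate 2. The 14 adipocyte markers summed to 14983, 15796 and 13283 CPM with 2, 3 and 4 or more gate UMIs in replicate 1, and to 14454, 20199 and 2902 in replicate 2. The lowest of these values was that of the replicate 2 members with 4 or more gate UMIs. The plot of level by gate UMIs shows the same rise for Pkhd1l1.

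**Figure D1:**
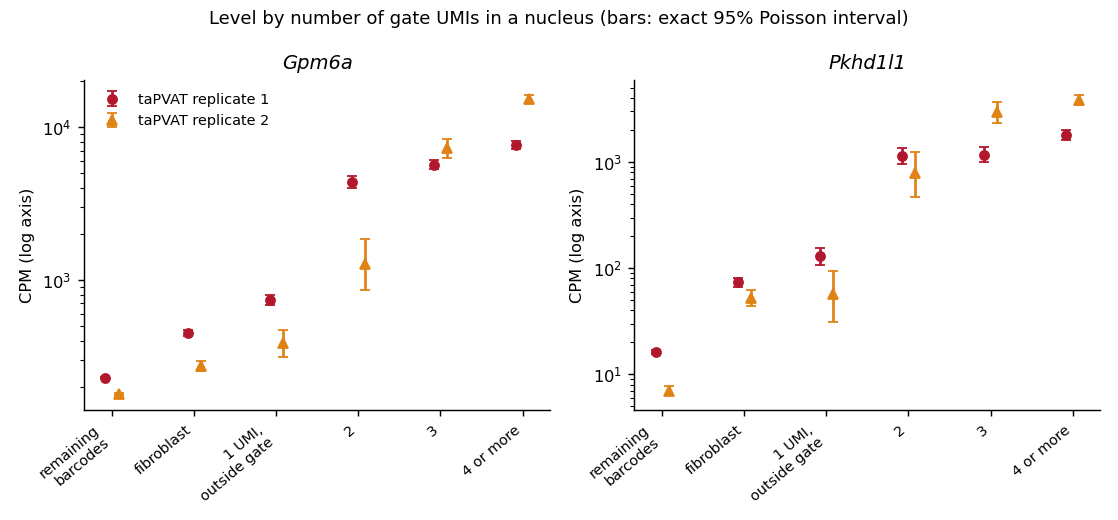
Level of Gpm6a (left) and Pkhd1l1 (right) in CPM on a log axis, against the number of gate UMIs in a nucleus, for both taPVAT libraries, with fibroblasts and remaining barcodes at the left and exact 95% Poisson intervals as bars. Gpm6a rises from 738 CPM just outside the gate to 7620 with 4 or more gate UMIs in replicate 1, and from 384 to 15340 in replicate 2. The barcodes with 1 gate UMI leave out nuclei of the fibroblast gate, while the members keep them.

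Several genes known from mesothelium that the gate did not use were higher in members than in fibroblasts, while others were near or at 0. The marker list was chosen with earlier results of these data known. The suffix "-like" is left out of the name below, but the identity rests on transcripts alone. Gpm6a had a UMI in 97.5% of members in replicate 1 and 95.6% in replicate 2, against 33.2% and 18.3% of fibroblasts, and 36.1% and 28.2% of the remaining barcodes, whose median depth was 3119 and 4767 UMIs. Pkhd1l1, which encodes a large fibrocystin-like membrane protein, had a UMI in 85.7% and 97.8% of members, 7.52% and 4.34% of fibroblasts and 3.21% and 2.15% of the remaining barcodes. Endothelial nuclei, counted apart from the remaining barcodes, had a UMI of Pkhd1l1 in 11.7% and 9.59% and of Gpm6a in 30.5% and 13.3%. Single fibroblast nuclei held up to 78 Gpm6a UMIs in replicate 1 and 92 in replicate 2, and single remaining barcodes up to 109 and 62. The part of free RNA in these shares was not tested. Of the 24 mesothelial markers listed outside the gate, 22 were in the files and 14 passed the filter on low counts. In the fit described next, 13 of the 14 were higher in members (92.9%, against 4.64% of all genes tested) and 1, Prg4, was not called. Some of the 14 passed the filter through the members, such as Tmem151a (0 and 1.22 CPM in fibroblasts) and Cdh3 (2.56 and 2.44). Such genes had to come out higher, so the share describes the tested genes and is no support for the name. The 8 below the filter included the keratins Krt7, Krt8, Krt18 and Krt19. Krt8 stood at 4.79 and 47.4 CPM in members and 2.36 and 0 in fibroblasts, and Krt19 was at 0 in members of replicate 1 and at 15.8 in replicate 2. Calb2 and Itln1, often used for human mesothelium, had 0 UMIs in members of both libraries.

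Members and fibroblasts of taPVAT were compared on UMI sums per class and library with edgeR's quasi-likelihood test, keeping the library as a block. Of 9798 genes tested, 734 (7.49%) were called at an adjusted p under 0.05, 455 higher in members (4.64%) and 279 lower (2.85%). The direction was the same in both libraries for 733 of the 734. The median log2 fold change over all tested genes was -0.09. With 4 sums and 1 residual degree of freedom the test found mainly large differences: on simulated counts for this comparison it recovered 5% of genes changed by a log2 fold of 1 and 56% of those changed by 2. The simulation gave all genes 1 common dispersion and no difference between libraries, so recovery in the real counts may be lower. The filter on low counts keeps a gene that is high in only 1 class, and such a gene had to differ. The shares of lists given above and below therefore describe the tested genes and not whole lists. Without the block 323 genes were called (233 higher, 90 lower), and DESeq2 called 330 (249 higher, 81 lower).

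**Figure D2:**
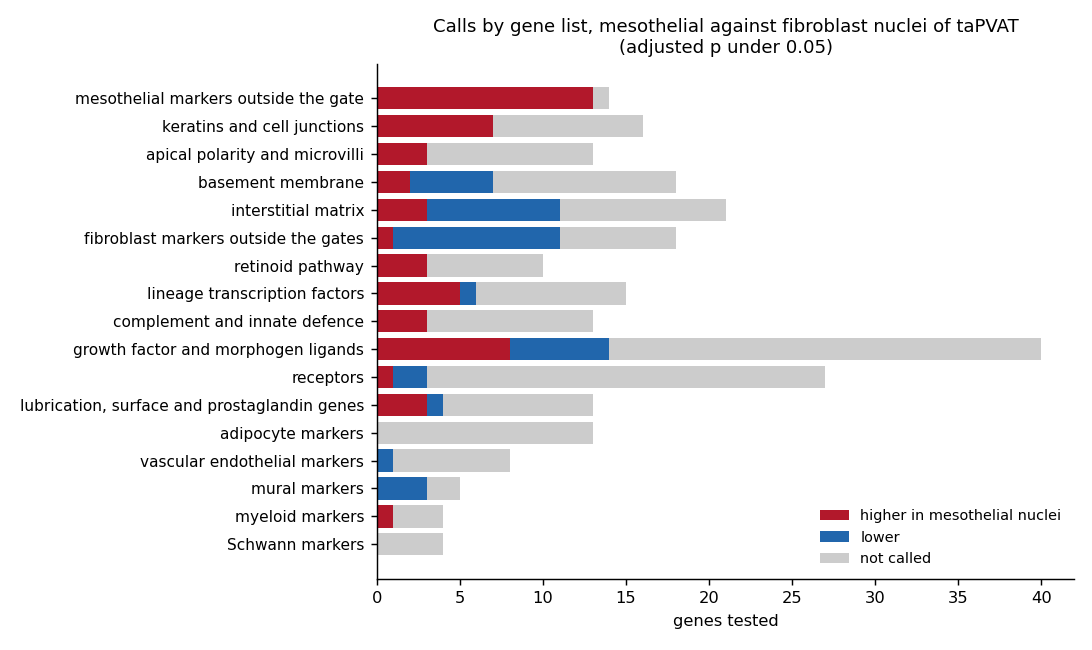
Number of tested genes per list that were higher in mesothelial nuclei, lower or not called against taPVAT fibroblasts (edgeR, adjusted p under 0.05), for lists with at least 4 tested genes. Mesothelial markers outside the gate were higher in 13 of 14, and fibroblast markers outside the gates lower in 10 of 18. The filter on low counts, and for the fibroblast markers the gates, bear on these counts.

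The 12 genes with the largest rise were Tmem151a, Pla2g2a, B3gnt7, Wfdc21, Cgn, Scel, Wdr17, Pkhd1l1, Flt3, Tspan8, Esyt3 and Myo5b, with log2 fold changes from 4.94 to 6.70. Pla2g2a, a secreted phospholipase with antibacterial activity, stood at 47.9 CPM in members of replicate 1 and 435 in replicate 2, against 1.77 and 1.22 in fibroblasts. Its log2 fold change was 6.44 ± 0.52 (SE; edgeR adjusted p = 2.84e-31), and members of both libraries lay above both fibroblast sums. Wfdc21, a small secreted whey-acidic-protein family member, stood at 271 and 878 against 11.6 and 7.71 (log2 5.54 ± 0.41). Flt3, a receptor tyrosine kinase best known from haematopoietic progenitors, stood at 129 and 403 against 8.08 and 4.47 (log2 5.02 ± 0.41), while Ptprc, the pan-leukocyte gene, was 0 in members by the gate. Scel (sciellin, a cornified-envelope precursor of stratified epithelia) stood at 88.6 and 119 against 1.97 and 3.25. Myo5b, a motor of apical membrane recycling, stood at 180 and 332 against 9.65 and 4.87, and the glycosyltransferase B3gnt7 at 21.6 and 39.5 against 0.197 and 0.406. Tmem151a, a transmembrane protein of the marker list, stood at 24.0 and 94.9 against 0 and 1.22. The folds of Tmem151a and B3gnt7 rest on very few fibroblast UMIs, 3 and 2 over both libraries. In each of the 12 genes the CPM of members was higher in replicate 2 than in replicate 1.

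The promoters of these 12 genes and of the 5 gate genes were searched on both strands for 2 motifs, each 6 bases long, in RefSeq windows of 300 bases (250 before to 50 after the gene start, rat build GRCr8), which were given for 15 of the 17. The first, GGAATG, is bound by TEAD factors. It or its reverse complement occurred in 1 of the 4 gate genes found, Upk1b, and in 0 of the 11 highest genes, against 14.2% of 33469 promoters. The second, AGATAA, is bound by GATA factors. It or its reverse complement occurred in 2 of the 11 highest genes, B3gnt7 and Tspan8, and in 0 of the 4 gate genes, against 11.6% of all promoters. The 3 windows with a match are printed because they are the only ones of the 15 to hold either motif, which is in capitals, written 5′ to 3′ on the strand of the gene. The match starts 178 bases before the start of Upk1b, 160 before that of B3gnt7, and at base 11 of the Tspan8 transcript. Such matches are a description of letters, and no binding was measured.
Upk1b promoter at chr11:75459131-75459430, plus strand: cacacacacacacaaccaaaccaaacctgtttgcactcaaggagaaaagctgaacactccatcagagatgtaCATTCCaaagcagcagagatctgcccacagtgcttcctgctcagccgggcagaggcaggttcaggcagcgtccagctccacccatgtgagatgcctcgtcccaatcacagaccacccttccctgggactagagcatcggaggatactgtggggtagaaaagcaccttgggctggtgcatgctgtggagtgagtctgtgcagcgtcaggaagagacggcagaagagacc
B3gnt7 promoter at chr9:94403947-94404246, plus strand: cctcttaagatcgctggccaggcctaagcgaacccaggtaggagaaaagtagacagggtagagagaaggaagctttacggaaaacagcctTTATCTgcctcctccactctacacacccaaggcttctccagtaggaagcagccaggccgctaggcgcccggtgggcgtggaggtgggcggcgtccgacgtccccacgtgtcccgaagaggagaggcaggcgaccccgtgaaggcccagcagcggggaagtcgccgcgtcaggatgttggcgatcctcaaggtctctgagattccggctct
Tspan8 promoter at chr7:53330937-53331236, plus strand: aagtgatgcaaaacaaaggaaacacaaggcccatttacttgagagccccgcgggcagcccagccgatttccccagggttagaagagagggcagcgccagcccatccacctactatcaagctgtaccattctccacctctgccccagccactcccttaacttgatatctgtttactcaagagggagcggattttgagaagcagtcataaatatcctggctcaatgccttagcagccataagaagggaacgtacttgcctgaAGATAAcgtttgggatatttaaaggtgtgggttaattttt

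Among the genes that join epithelial cells, several of tight junctions and desmosomes rose. Of 26 keratin and junction genes in the files, 10 lay below the filter. Of the 16 tested, 7 were higher (43.8%, against 4.64% of all genes) and 0 lower, with a median log2 fold change of 0.86. Of the 7, Cgn, Dsp, Dsg2, Cdh3 and Cldn15 were at most at 5.28 CPM in fibroblasts and passed the filter through the members, so the share describes the tested genes and is no support for a change of the list. Cgn (cingulin, a tight-junction adaptor) stood at 103 and 190 CPM against 4.33 and 1.62 in fibroblasts (log2 5.31 ± 0.49; edgeR adjusted p = 5.88e-25). The desmosomal plaque gene Dsp stood at 43.1 and 142 against 2.17 and 2.84 (log2 4.88), and the desmosomal cadherin Dsg2 at 79.0 and 111 against 3.74 and 2.03 (log2 4.82). Cdh3 (P-cadherin) rose by a log2 fold of 4.46 and the claudin Cldn15 by 3.85, from 4.92 and 5.28 in fibroblasts to 50.3 and 127 in members. Pkp4 and Tjp1 were the other 2 called, at log2 1.31 and 1.16, and the call of Pkp4 was lost in 7 of 11 alternative fits. Tjp1 (ZO-1) stood at 137 and 237 against 84.1 and 70.2, and its call was lost in 6 of 11 alternative fits. Cdh2 (N-cadherin) was level with fibroblasts, at 35.9 and 31.6 against 41.6 and 32.1 (log2 -0.16, adjusted p = 0.972), and Cdh1 (E-cadherin) had 0 UMIs in members. Ctnna1, Ctnnb1 and Jup, which link cadherins to actin or desmosomes, were not called.

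Of 13 tested apical and polarity genes (3 more lay below the filter), 3 were higher (23.1%, against 4.64% of all genes) and 0 lower. Ezr, the ezrin linker of microvilli to actin, stood at 192 and 498 CPM against 22.6 and 17.0 (log2 3.88 ± 0.36; edgeR adjusted p = 9.41e-24), and its groups were far apart. Patj, of the Crumbs polarity complex, stood at 43.1 and 150 against 27.6 and 25.6, and its call was lost in 5 of 11 alternative fits. Pkhd1l1 was the third. The related linkers Msn (19.2 and 39.5 against 43.9 and 97.8; adjusted p = 0.11) and Rdx (59.9 and 31.6 against 65.2 and 63.7) were not called, nor were the polarity genes Pard3, Pard3b and Prkci.

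**Figure D3:**
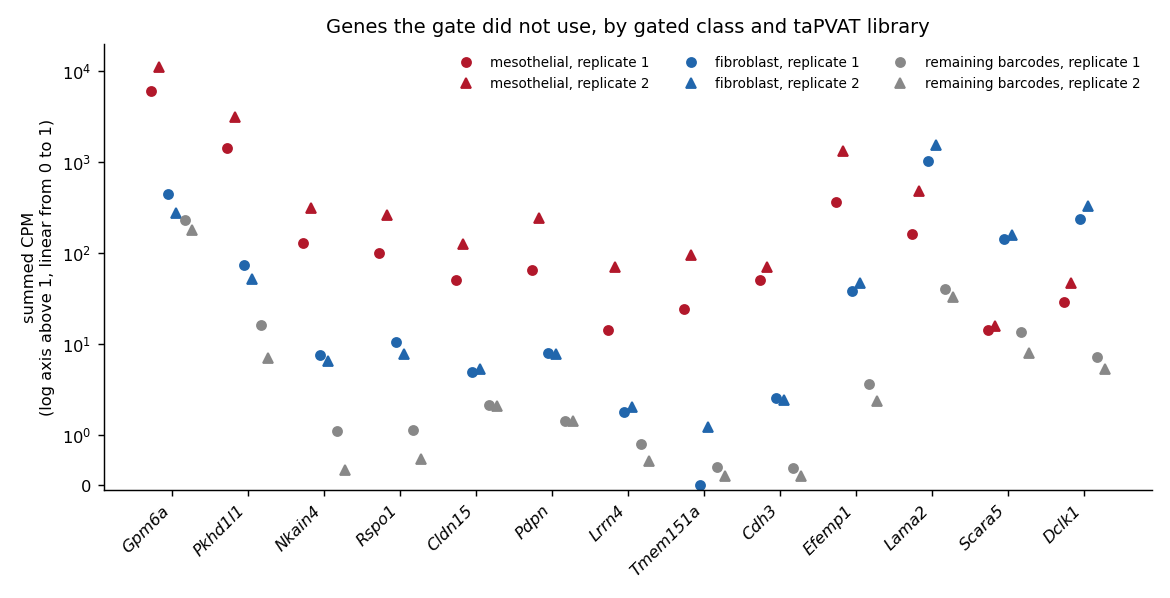
CPM of 13 genes that the gate did not use, in mesothelial nuclei, fibroblasts and remaining barcodes of taPVAT replicates 1 (circles) and 2 (triangles), on an axis that is logarithmic above 1 and linear from 0 to 1. Gpm6a, Pkhd1l1 and the other mesothelial genes are highest in members of both libraries, while Lama2, Scara5 and Dclk1 are highest in fibroblasts.

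Of 18 tested basement-membrane genes (5 more lay below the filter), 2 were higher (11.1%) and 5 lower (27.8%). Of 21 tested interstitial-matrix genes (2 below the filter), 3 were higher (14.3%) and 8 lower (38.1%), with a median log2 fold change of -1.09. Over all genes, 4.64% were higher and 2.85% lower. Fras1, a basement-membrane anchor of epithelia, stood at 252 and 506 CPM against 20.1 and 8.93 (log2 4.55 ± 0.37; edgeR adjusted p = 1.29e-30). Its partner Frem1 went the other way, at 14.4 and 0 against 57.5 and 55.2. Of the collagen IV chains, Col4a5 was higher (125 and 245 against 46.9 and 62.9; log2 1.64), Col4a1 and Col4a2 were lower (log2 -1.94 and -2.32), and Col4a3 and Col4a4 were not called (log2 -0.05 and -0.02). Lama2, the laminin chain typical of mesenchyme, fell by 2.20 on the log2 scale and Nid1 by 1.57. The calls of Lama2 and Col4a2 were lost without the block, at adjusted p = 0.108 and 0.0514, those of Frem1, Col4a1 and Col4a5 were lost in 2 of 11 alternative fits each, and that of Nid1 in 3.

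Efemp1 (fibulin-3), an elastic-fibre protein, had the largest rise of the interstitial-matrix list, at 369 and 1328 CPM against 38.0 and 46.7 in fibroblasts (log2 4.02 ± 0.41; edgeR adjusted p = 1.44e-20). Fibronectin (Fn1) stood at 110 and 443 against 87.6 and 122, and the collagen cross-linking enzyme Lox at 21.6 and 55.4 against 8.86 and 7.31, with the larger ratio in replicate 2 for both. Their calls were lost in 9 and 7 of 11 alternative fits, and the log2 fold change of Fn1, 1.07, was -0.46 (adjusted p = 0.909) in members outside the fibroblast gate. Vcan (versican) had 0 UMIs in members of both libraries against 27.0 and 41.0 CPM in fibroblasts, at least 5.72-fold lower than the pooled fibroblast level of 31.6 CPM when 3 UMIs over all members (5.52 CPM) are taken as the floor, and DESeq2 did not call it. The microfibril gene Mfap5 stood at 0 and 23.7 against 94.3 and 114 (log2 -4.07), and Postn (periostin) at 7.19 and 39.5 against 125 and 169 (log2 -3.13). Fbn1 (fibrillin-1), the core of microfibrils, fell by 2.36 on the log2 scale. Abi3bp, Eln and Fbln1 were not called.

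Of 18 fibroblast markers outside the gates, all of them tested, 10 were lower (55.6%, against 2.85% of all genes) and 1 was higher (5.56%, against 4.64%), with a median log2 fold change of -1.94. Of the lower markers, Mfap5, Fbn1, Lum, Lama2 and Pdgfrb also stand in the matrix, basement-membrane or receptor lists, so these shares are not separate counts. The call of Lum was lost in 7 of 11 alternative fits. Members had to hold 0 UMIs of Pdgfra, while fibroblasts were chosen by Pdgfra, Dcn, Col1a1 and Col3a1. The part of this choice in the lower markers was not tested. Scara5 and Dclk1, both markers of adipose fibroblasts, stood at 14.4 and 15.8 CPM against 144 and 157 (log2 -3.33), and at 28.7 and 47.4 against 239 and 327 (log2 -2.96). Pi16, of universal fibroblasts, stood at 26.3 and 55.4 against 197 and 231. Dpp4 (CD26), a protease that also marks adventitial fibroblasts, was the exception, at 151 and 348 in members against 18.3 and 18.7 in fibroblasts (log2 3.56 ± 0.37; edgeR adjusted p = 5.01e-19). Of the members, 41 in replicate 1 and 18 in replicate 2 also passed the fibroblast gate through Dcn, Col1a1 or Col3a1. They held 7013 and 13371 CPM of Gpm6a, against 5642 and 9447 in the other members. Their Lama2 was 261 and 557, against 108 and 427 in the other members and 1022 and 1552 in fibroblasts. Dcn, Col1a1 and Col3a1, which placed them in that gate, summed to 1219 and 2860 CPM. The same sum was 1443 and 1907 in fibroblasts and 227 and 358 in the other members. Fibroblast transcripts were thus not uniformly low in members.

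The 8 genes with the lowest fitted fold change all had 0 UMIs in members, so that their rank rests on a fitted value over 0 counts and only a bound can be given. They were Notch3, Piezo2, Tnnt3, Adamts16, Epha3, Akr1c14, Slc43a3 and Vcam1, with fibroblast levels from 24.6 to 77.9 CPM, and each was at least 5.89-fold lower with both libraries pooled. Notch3, a receptor of mural cells and perivascular fibroblasts, stood at 39.2 and 77.9 CPM in fibroblasts. It had the largest bound of the 8, at least 9.40-fold lower than the pooled fibroblast level of 51.9 CPM. Piezo2, a mechanosensitive channel, stood at 49.2 and 41.4 in fibroblasts and was at least 8.46-fold lower than their pooled level of 46.7. DESeq2 did not call 6 of the 8. Its exceptions were Adamts16 and Epha3. The fibroblast gate, unlike the mesothelial one, excludes no endothelial, leukocyte or smooth-muscle gene, and with those exclusions and at least 5 UMIs it gave 762 calls (417 higher, 345 lower).

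Of 15 tested transcription factors of the coelomic and cardiac lining (12 more lay below the filter), Gata4, Osr1, Tbx18, Bnc2 and Gata6 were higher (33.3%, against 4.64% of all genes) and Nr2f1 was lower (6.67%, against 2.85%). Gata4 stood at 47.9 and 94.9 CPM against 3.94 and 2.03 in fibroblasts (log2 4.25 ± 0.57; edgeR adjusted p = 8.95e-12). Tbx18, a T-box factor of the epicardium, stood at 93.4 and 87.0 against 17.7 and 14.2, and the odd-skipped factor Osr1 at 52.7 and 134 against 9.65 and 14.2. Bnc2, the paralogue of the gate gene Bnc1, stood at 546 and 1147 against 134 and 175 (log2 2.34). Nr2f1 had 0 UMIs in members against 18.1 and 25.2 in fibroblasts, at least 3.70-fold lower than their pooled 20.4 CPM, a call lost in 3 of 11 alternative fits. Tead1, an effector of Hippo signalling, was level, at 386 and 633 against 320 and 596. Hand1, Hand2, Irx3 and Tbx20 had 0 UMIs in members.

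The retinoid pathway makes and senses the vitamin A derivative retinoic acid. Of its 10 tested genes (8 more lay below the filter), 3 were higher (30%, against 4.64% of all genes). The dehydrogenases Aldh1a2 and Aldh1a3 were among them. In this list 0 genes were lower, against 2.85% of all genes. Aldh1a2, which makes retinoic acid and is a marker of embryonic mesothelium, stood at 355 and 538 CPM against 53.4 and 138 in fibroblasts (log2 2.33 ± 0.35; edgeR adjusted p = 2.83e-09). Aldh1a3, a second such dehydrogenase, stood at 64.7 and 214 against 26.8 and 52.0 (log2 1.63), and was not called without the block or by DESeq2. The receptors Rara, Rarb, Rarg and Rxra were not called, and the retinoic-acid hydroxylase Cyp26a1 had 0 UMIs in members.

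Ligands moved in both directions. Of 40 tested growth-factor and guidance genes (9 more lay below the filter), 8 were higher (Rspo1, Wnt2b, Fgf9, Bmp6, Sema3c, Tgfa, Bmp4 and Gas6) and 6 lower (Fgf10, Vegfd, Igf1, Angpt1, Tgfb2 and Pdgfd), or 20% and 15% against 4.64% and 2.85% of all genes. The calls of Bmp4, Pdgfd, Vegfd and Tgfb2 were lost in 3, 3, 4 and 6 of 11 alternative fits, and those of Tgfa, Igf1 and Angpt1 in 1 each. Rspo1, an amplifier of Wnt signalling, stood at 101 and 261 CPM against 10.4 and 7.71 in fibroblasts (log2 4.04 ± 0.42; edgeR adjusted p = 3.87e-19). The Wnt ligand Wnt2b stood at 52.7 and 150 against 6.50 and 7.31, and the growth factor Fgf9 at 129 and 182 against 21.1 and 11.4. Bmp6 rose by 3.12 on the log2 scale and the EGF-receptor ligand Tgfa by 2.37. Sema3c, a semaphorin guidance cue, stood at 1162 and 2459 against 260 and 246. Among the lower ligands, Fgf10, a mesenchymal signal to epithelia, stood at 7.19 and 0 against 82.1 and 49.1 (log2 -3.79), and Igf1 at 120 and 31.6 against 274 and 396. The endothelial ligand Angpt1 stood at 86.2 and 23.7 against 233 and 206. Vegfa was not called (510 and 190 against 534 and 548), and Vegfc stood at 47.9 and 261 against 56.1 and 47.9 (adjusted p = 0.0579; 0.0450 without Scrublet doublets), so that its 2 libraries disagreed in direction.

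**Figure D4:**
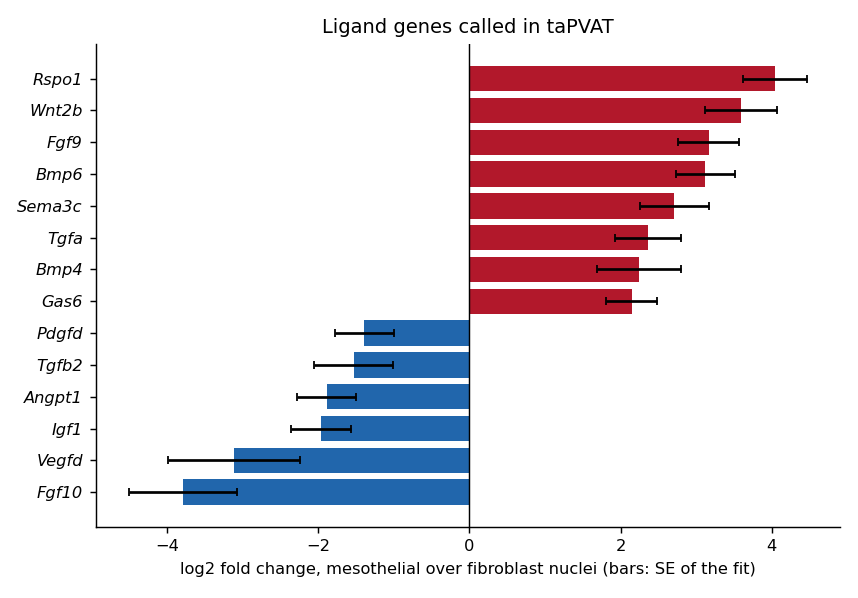
Log2 fold change of the 14 called ligand genes, mesothelial over fibroblast nuclei of taPVAT, with the standard error of the edgeR fit as bars. Rspo1 has the largest rise at 4.04 and Fgf10 the largest fall at -3.79.

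Of 27 tested receptors (9 more lay below the filter), 1 was higher and 2 lower (3.70% and 7.41%), against 4.64% and 2.85% of all genes. Ptprf, a receptor phosphatase of epithelia, stood at 95.8 and 134 CPM against 29.7 and 32.1 in fibroblasts (log2 1.83; edgeR adjusted p = 0.000154), and DESeq2 did not call it (0.0503). The collagen receptor Ddr2 stood at 47.9 and 71.2 against 320 and 380 (log2 -2.63), and Pdgfrb at 16.8 and 0 against 65.8 and 132, a call lost without the block (adjusted p = 0.0507). Egfr, the receptor of Tgfa, stood at 347 and 862 against 244 and 291 and missed the threshold (adjusted p = 0.079), and was called at 0.0499 without Scrublet doublets. Met stood at 88.6 and 55.4 against 49.0 and 30.4 and was not called.

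Of 13 tested complement and defence genes (12 more lay below the filter), Il33, C1r and C1s were higher (23.1%, against 4.64% of all genes) and 0 lower. Il33, a nuclear alarmin of barrier cells, stood at 120 and 190 CPM against 27.0 and 25.6 in fibroblasts (log2 2.45 ± 0.39; edgeR adjusted p = 1.51e-08). The proteases of the first complement component, C1r (88.6 and 261 against 39.8 and 77.9) and C1s (69.5 and 206 against 37.0 and 56.0), lost their calls in 4 and 8 of 11 alternative fits. Of 13 tested lubrication, surface and prostaglandin genes (6 more lay below the filter), Ptgs1, Plat and Aqp1 were higher (23.1%) and Sult1e1 lower (7.69%), against 4.64% and 2.85% of all genes. Ptgs1, the constitutive cyclooxygenase, stood at 55.1 and 111 against 5.51 and 8.93 (log2 3.43), and the water channel Aqp1 at 71.9 and 94.9 against 23.2 and 15.8, which DESeq2 did not call (adjusted p = 0.0579). Sult1e1, an oestrogen sulfotransferase, had 0 UMIs in members against 34.9 and 8.93. It was at least 4.78-fold lower only with both libraries pooled (26.4 CPM in fibroblasts), replicate 2 alone gives no bound, and its call was lost in 2 of 11 alternative fits. Plat (tissue plasminogen activator) stood at 19.2 and 55.4 against 7.48 and 7.31, a call lost in 7 of 11 alternative fits. Prg4 (lubricin) stood at 12.0 and 31.6 against 2.76 and 10.1 and was not called. Has1, Has2 and Has3, the hyaluronan synthases, lay below the filter.

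All 12 markers of other epithelia in the files, among them Epcam, Krt5 and Sftpc, had 0 UMIs in members of both libraries. Mural markers summed to 47.9 and 31.6 CPM in members against 381 and 349 in fibroblasts, with 3 of 5 tested lower (Notch3, Rgs5 and Abcc9; 2.85% of all genes were lower), 4 below the filter and Acta2 at 0 UMIs. DESeq2 did not call Notch3 or Rgs5. The mesothelial gate removed nuclei with Myh11, while the fibroblasts held 287 and 59 Myh11 UMIs, and the part of this in the mural counts was not tested. Vascular endothelial markers summed to 105 and 63.3 against 234 and 157. Of 8 tested, 1 was lower (12.5%, against 2.85% of all genes). It was Tek, the angiopoietin receptor (7.19 and 0 against 42.1 and 34.1; log2 -2.91, edgeR adjusted p = 0.00333), and its call was lost in 5 of 11 alternative fits. The gate also removed nuclei with the endothelial gene Cyyr1, of which the fibroblasts held 272 and 51 UMIs. Myeloid markers summed to 88.6 and 134 against 65.2 and 91.3 in fibroblasts and 75.3 and 104 in the remaining barcodes, and Csf1r was higher (16.8 and 87.0 against 6.70 and 13.4; log2 2.02), while C1qa was at 0 UMIs and Cd163 at 12.0 and 0. Its call was lost in 3 of 11 alternative fits. The part of leukocyte RNA in it was not tested. Schwann markers summed to 632 and 561 in members against 569 and 580 in fibroblasts, most of it from Mbp (608 and 403 in members, 502 and 499 in fibroblasts). Of the 4 tested, 0 were called, against 7.49% of all genes. Lymphocyte markers held 7 and 0 UMIs in members and proliferation markers 2 and 0.

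Adipocyte RNA was present in members, as in the other classes. Plin1, the lipid-droplet coat gene, had a UMI in 77.3% of members of replicate 1 but 28.9% of replicate 2, against 82.9% and 52.3% of fibroblasts and 95.4% and 92.8% of the remaining barcodes. The median of 14 adipocyte markers in members was 73.1% of its level in the remaining barcodes in replicate 1 and 28.6% in replicate 2, and in fibroblasts it was 75.1% and 61.2%. Of the 13 tested, 0 were called between members and fibroblasts by edgeR or DESeq2, where edgeR called 7.49% of all genes tested. An unadjusted edgeR p under 0.05 occurred in 0 of the 13 (median log2 -0.45). In nuclei with 1000 to 5000 UMIs Pparg, the adipocyte master factor, was called lower (log2 -1.19, adjusted p = 0.0326). Members of replicate 1 thus carried about as much adipocyte RNA as fibroblasts did, and members of replicate 2 less when summed together. Within replicate 2 the markers summed to 14454 and 20199 CPM with 2 and 3 gate UMIs and 2902 with 4 or more, against 17804 in fibroblasts. The 18 members of replicate 2 also in the fibroblast gate held 2953, and the other 27 held 12807. Ebf2, a brown-adipocyte determination factor also found in fibroblasts, stood at 1689 and 214 CPM in members against 2582 and 2030 in fibroblasts and 2289 and 1917 in the remaining barcodes. It was called lower (log2 -1.81, adjusted p = 0.0133), with the larger ratio in replicate 2, and the call was lost in 4 of 11 alternative fits. The part of adipocyte RNA in these differences was not tested.

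**Figure D5:**
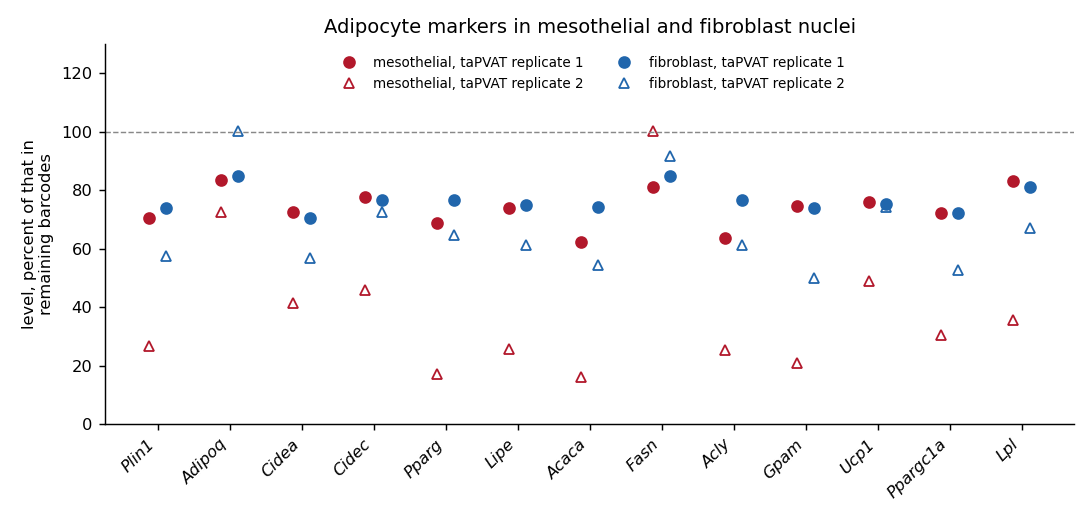
Level of 13 adipocyte markers in mesothelial (red) and fibroblast (blue) nuclei as a percentage of their level in the remaining barcodes, for taPVAT replicate 1 (filled circles) and replicate 2 (open triangles), with the dashed line at 100%. Red circles lie near the blue circles, while all red triangles but that of Fasn lie below the blue ones.

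The members of the 2 taPVAT libraries also differed from each other. Of 2684 genes with at least 30 UMIs in the members of either library, 227 differed by more than 3-fold, 186 higher in replicate 1 and 41 higher in replicate 2. Members held 417469 UMIs in replicate 1 and 126463 in replicate 2, so a gene needs a higher level to reach 30 UMIs in replicate 2, and the 2 counts cannot be compared with each other. Of the 186, 153 stood above 100 CPM in the remaining barcodes of replicate 1, and 7 also differed by more than 3-fold the same way in fibroblasts. The shares of all 2684 genes that meet these criteria were not computed, so neither count is read as a result. The genes higher in replicate 2 included Pla2g2a (47.9 and 435 CPM), Apoe (285 and 1162), Cxadr (79.0 and 324), an adhesion receptor of epithelial junctions, and Slc39a8 (74.3 and 364). Among the genes higher in replicate 2 the largest ratio was that of Grik2, a glutamate receptor subunit, at 19.2 and 324 in members against 48.1 and 48.7 in fibroblasts. With 1 library on each side these differences have no replicate check, and intervals from counts cover counting error only.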

How the data were processed

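Single-nucleus 3′ RNA libraries (10x Genomics v3.1) of taPVAT and subscapular BAT, 2 each, were used as deposited: whole-number UMI counts per gene and barcode, made by the authors with Cell Ranger 7.1.0 on Rnor_6.0, per the submitters' processing notes. No source used here gives the annotation release or whether introns were counted. Barcodes with under 500 genes were left out. The members and lists were chosen with earlier results of these data known.

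Counts were summed per gated class and library in Python 3.11.15 and tested with edgeR 4.0.16 in R 4.3.3 (TMM scaling, filterByExpr, quasi-likelihood test, library as a block, Benjamini-Hochberg adjustment over all tested genes). The 12 genes of the gates stayed in library sizes and out of the tests. An adjusted p under 0.05 was called. The block pairs both classes of 1 library, which share its tissue and preparation. Standard errors were taken from the fold change and its F statistic. Simulated counts were used to test the fit. Lists were marker and pathway sets, described by counts and medians, and some genes stand in several lists. The named genes were the 12 highest and 8 lowest called genes with at least 20 CPM in both libraries of the higher class, up to 4 called genes per list, and preset genes of known roles. Further list members are named to complete a count, chosen after their values were seen. For genes at 0 UMIs in members, folds are bounds with 3 UMIs over the group as the floor. Alternatives were another tool (DESeq2 1.42.0), scaling, filter, gates and depth, no block, doublet removal (Scrublet in scanpy 1.11.5, taPVAT only), thinning and leaving out each library. Members outside the fibroblast gate were an alternative added after seeing the data. 2 listed genes are not reported here.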

Additional observations from a re-analysis of the deposited data

Results flagged for a closer look

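Barcodes under 500 genes, which no comparison used, also held some that passed the gene criteria of the mesothelial gate in taPVAT: 5 of 2429 in replicate 2 (0.206%, 95% Wilson interval 0.0880% to 0.481%), against 0 in both BAT libraries. The value lay above the limits of 0.125% and 0.109% that these counts of 0 allowed, but its interval reached below both. In taPVAT replicate 1 they were 3 of 1658.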

How the results depend on the processing

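Called genes numbered 734 (455 higher, 279 lower). The fit without the replicate block gave 323 (233 higher, 90 lower), DESeq2 330 (249 higher, 81 lower) and a minimum of 1000 genes per nucleus 434 (128 lower), while members outside the fibroblast gate, added after seeing the data, gave 537 (287 higher). In the fit without the block, all 323 were also called with it. The other alternatives gave 618 to 775 calls, within 1.5 times the main count. The cause was not tested. Of 67 named genes called, 41 were called in every alternative fit that tested them (up to 11) and 26 lost the call in at least 1. Of the 734 called genes, the direction turned in 2 of the 11 fits for 1 gene each, both not called there: Cnksr2 (log2 1.64 to -0.90 with at least 3 gate UMIs; named after its values were seen) and Fn1 (1.07 to -0.46 outside the fibroblast gate). Of other named genes, directions turned for Cdh2 (log2 0.20) and Tead1 (-0.0087) outside the fibroblast gate, both not called, and for Vegfc, not called except without Scrublet doublets (adjusted p = 0.0450), at -0.19 without taPVAT replicate 2 and 2.39 without replicate 1. Leaving out a library leaves 1 sum per class and no residual degree of freedom, so those are values with no test. The mean difference in share between tissues, 0.321 percentage points, was 0.239 with at least 3 gate UMIs, 0.422 without exclusion genes and 0.162 after thinning, and 0.277 and 0.365 within the replicate numbers, which pair no labelled animals. Depth limits the low genes: 3 UMIs over all members are 5.52 CPM.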

Other observations

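Genes outside the lists, chosen after their values were seen from those with the smallest adjusted p, added members of several functions. The actin regulators Baiap2l1 and Cobl, both known from microvilli or filament assembly, stood at 378 and 530 CPM and at 405 and 688 CPM in members of taPVAT replicates 1 and 2, against 18.3 and 17.0 and 35.6 and 20.3 in fibroblasts. Baiap2l1 rose by 4.61 ± 0.38 on the log2 scale (SE; edgeR adjusted p = 1.10e-30). Slc26a3, an epithelial chloride-bicarbonate exchanger, stood at 208 and 269 (log2 4.92), and the serotonin receptor Htr4 at 170 and 300 against 11.8 and 8.93 (log2 4.35). Wwc1 (KIBRA), an upstream regulator of Hippo signalling, stood at 139 and 348 against 9.45 and 7.31 (log2 4.59). The guidance genes Sema3e and Ephb1 stood at 220 and 387 (log2 4.33), and at 235 and 451 against 16.2 and 19.5 (log2 4.15). Cdh11, usually a mesenchymal cadherin, was higher in members, at 1253 and 2776 against 120 and 105 (log2 4.02). In each of these genes the CPM of members in both libraries lay above that of fibroblasts in both.

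On the lower side, Plpp3, a lipid phosphatase, stood at 19.2 and 0 CPM in members against 346 and 615 in fibroblasts (log2 -4.92 ± 0.52 SE; edgeR adjusted p = 5.59e-19). The mesenchymal homeobox factor Prrx1 stood at 2.40 and 23.7 against 204 and 141, and the fibroblast activation protease Fap at 2.40 and 0 against 93.8 and 131. Col8a1, a short-chain collagen, stood at 2.40 and 0 against 130 and 111 (log2 -6.07). The values of Col8a1 and Fap each rest on 1 UMI in members, and that of Prrx1 in replicate 1 also rests on 1 UMI.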
